A study of Homo sapiens with 4 samples.

Results

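The mitochondrial ribosomal protein genes are the protein-coding genes whose current symbol or older alias starts with MRPL or MRPS and a digit, with MRPS6 left out. On this array, 148 probe sets with a single gene symbol belonged to 79 such genes, of 19775 genes and 41097 single-symbol probe sets in all. The current symbol put 74 genes in the group and an older alias 5. By name, 48 genes encode proteins of the large subunit and 28 of the small subunit, counting DAP3 (MRPS29) and KGD4 (MRPS36) with the small one. The other 3, IMP3, LACTB and RSPH9, joined by an alias, are known for other functions and were given no subunit.

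The mitochondrial ribosome translates the small set of proteins encoded in mitochondrial DNA, all of them subunits of the respiratory chain and ATP synthase. Its RNAs come from mitochondrial DNA, while its proteins are encoded in the nucleus, made in the cytosol and imported. Many have a counterpart in bacterial ribosomes, and the rest were gained in the mitochondrial lineage.

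The study set HCT116 cells, an established human colon carcinoma line, grown flat as a monolayer against the same cells grown as spheroids, multicellular balls of cells in which oxygen and nutrients reach the inner cells by diffusion. There were 4 arrays: HCT116 wt as monolayer, HCT116 wt as spheroids, HCT116 wt/GFP as monolayer and HCT116 wt/GFP as spheroids, with 1 array each; monolayer and spheroids were thus each seen on 2 arrays. All 4 carry the wt label. The labels say neither what wt refers to, nor how GFP was introduced or whether those cells are 1 clone, nor how the spheroids were made, how large they were and how long they had grown. Nothing in them says that cultures were repeated, so p-values measure only the spread between these samples.

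Each array held 54675 probe sets, sets of short probes whose brightness is summarised as a MAS5 signal, and the number of arrays, 4, limits the precision. The trimmed mean was 500.1 on every array, as the deposited scaling sets it, while the median signal was 48.0 and 48.8 in monolayer and 67.3 and 68.4 in spheroids. The ratio of the 3' to the 5' probe set of ACTB, a sign of RNA length, was 1.32 and 1.30 in monolayer and 1.76 and 1.73 in spheroids; for GAPDH it was 0.897 and 0.882 in monolayer against 0.868 and 0.951 in spheroids. The part of RNA length in the results below was not tested. The epithelial markers EPCAM, KRT8, KRT18 and KRT19 were bright on all arrays. CDH1 (E-cadherin) had signals of 916 (wt) and 889 (wt/GFP) in monolayer and 4493 and 4866 in spheroids, a log2 change of 2.36 (adjusted p = 3.93e-15 in limma). CDX2 was close to a signal of 30.6, the limit for the mean level below which genes were not tested, with signals from 33.1 to 81.6. Of 10 markers of leukocytes, fibroblasts and endothelium, 6 (PTPRC, CD14, COL1A2, PDGFRB, VWF and CDH5) lay below that limit. The summed signal of all 10 was 842 and 714 in monolayer and 2792 and 4433 in spheroids; COL1A1 rose from 303 and 338 to 2275 and 3780, and without it the sum was 377 to 653 on all 4 arrays. The part of CDH1 and COL1A1 in the results was not tested. In bulk RNA, fewer cells of a type and less RNA per cell cannot be told apart.

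The transcripts of the mitochondrial ribosome were lower in spheroids across both subunits. Of the 76 genes with a subunit, 69 fell, none rose and 7 were not called, at an adjusted p under 0.05 in limma with cell line as a block. At an unadjusted p under 0.05, 71 were lower and none higher. Among all 14337 genes tested, 18.6% were lower and 30.7% higher, and the median gene changed by 0.23 on the scale log2(signal + 14.0), spheroids minus monolayer. The median ribosomal gene changed by -0.69, which is 1.61-fold down, or -0.92 relative to that median of all genes. Genes with both spheroid arrays below both monolayer arrays numbered 70 of the 76, against 26.5% of all genes. A fall of at least 2-fold was called in 19, against 5.04% of all genes. Called falls ran from -0.28 to -1.50, with standard errors of 0.114 to 0.148 and adjusted p from 0.0431 down to 1.1e-11. These tests rest on 1 residual degree of freedom per gene plus 26.8 that limma borrows from the other genes; with a moderation that does not follow brightness, 36 of all 78 tested genes were lower, against 8.2% of all genes.

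**Figure D1:**
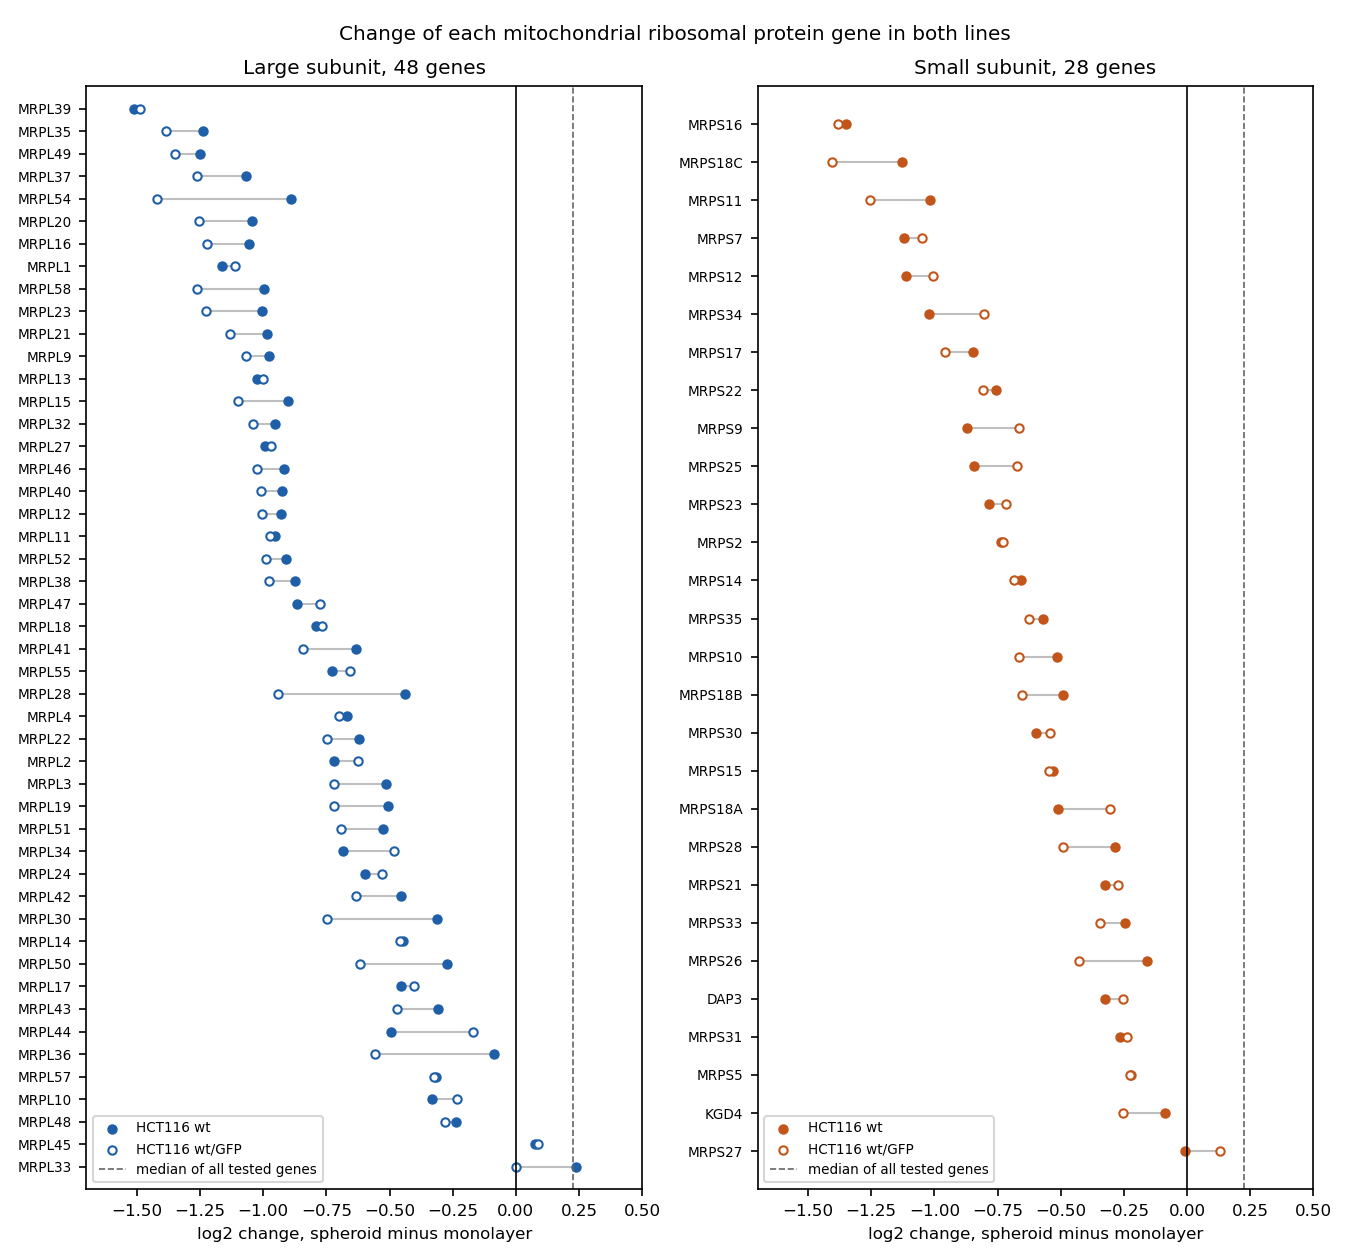
The log2 change (spheroids minus monolayer, horizontal axis) of each large-subunit gene (left) and small-subunit gene (right) in HCT116 wt (filled) and HCT116 wt/GFP (open), 1 pair of arrays each, with the median of all tested genes at 0.23 (dashed). All but MRPL45, MRPL33 and MRPS27 lie below 0 in both lines.

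The promoters were searched for motifs of factors known to act on such genes. In the 250 bases before the gene start, from RefSeq on GRCh38.p14, 68 of the 76 genes could be matched. The ETS core CCGGAAG, the letters bound by GABP, a known activator of nuclear genes for mitochondrial proteins, was found on either strand in 22 of the 68 (32.4%), against 8.82% of 27305 promoters and 14.6% of the 11496 promoters of tested genes. It was present in 13 of 41 large-subunit and 9 of 27 small-subunit promoters. The median change in spheroids was -0.68 for genes with the motif and -0.69 for those without. The core GCGCATGC of the factor NRF1 was in 6 promoters (8.82%, against 2.81% of all and 4.37% of tested), the E-box CACGTG in 7 (10.3%, against 6.49% of all and 8.53% of tested) and the YY1 motif AAGATGGCG in 3 (4.41%, against 0.641% of all and 1% of tested), and no match of one motif overlapped that of another. The median change with and without the motif was -0.82 and -0.69 for NRF1, -0.68 and -0.69 for the E-box, and -0.95 and -0.68 for YY1. These medians rest on 6, 7 and 3 genes with the motif, the 3 with YY1 all of the large subunit. No difference between genes with and without a motif was tested. The median G and C content of this window was 60.4% in these genes and 58% in all promoters. A match is a description of letters and not a site. The windows of 3 genes with large falls (MRPL39, MRPS16 and MRPS18C), 1 more that holds the ETS core (MRPL54) and 2 that were not called (MRPL33 and MRPS27) are shown 5' to 3', so that windows with and without the motif can be set side by side; capitals mark ETS cores and, in MRPS18C, also an E-box and an NRF1 core.
MRPL39, chr21:25607482-25607731, minus strand: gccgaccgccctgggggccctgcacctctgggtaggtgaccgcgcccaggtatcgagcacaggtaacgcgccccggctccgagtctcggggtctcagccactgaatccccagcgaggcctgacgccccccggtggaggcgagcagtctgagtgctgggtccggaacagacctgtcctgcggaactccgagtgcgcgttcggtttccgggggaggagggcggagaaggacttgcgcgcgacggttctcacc
MRPS16, chr10:73252645-73252894, minus strand: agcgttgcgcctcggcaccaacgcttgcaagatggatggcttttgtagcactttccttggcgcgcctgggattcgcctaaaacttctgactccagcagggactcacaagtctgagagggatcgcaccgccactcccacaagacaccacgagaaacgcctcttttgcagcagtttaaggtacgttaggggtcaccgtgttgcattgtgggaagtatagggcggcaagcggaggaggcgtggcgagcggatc
MRPS18C, chr4:83455808-83456057, plus strand: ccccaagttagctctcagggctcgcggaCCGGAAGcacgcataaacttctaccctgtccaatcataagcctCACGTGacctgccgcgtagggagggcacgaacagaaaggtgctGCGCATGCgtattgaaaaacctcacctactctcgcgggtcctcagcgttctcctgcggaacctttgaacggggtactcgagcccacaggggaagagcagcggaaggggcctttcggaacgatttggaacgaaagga
MRPL54, chr19:3762432-3762681, plus strand: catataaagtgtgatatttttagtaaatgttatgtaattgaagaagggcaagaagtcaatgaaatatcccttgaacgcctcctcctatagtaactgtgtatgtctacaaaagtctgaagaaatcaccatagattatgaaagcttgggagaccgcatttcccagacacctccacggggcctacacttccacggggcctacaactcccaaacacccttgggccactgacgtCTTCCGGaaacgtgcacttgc
MRPL33, chr2:27771469-27771718, plus strand: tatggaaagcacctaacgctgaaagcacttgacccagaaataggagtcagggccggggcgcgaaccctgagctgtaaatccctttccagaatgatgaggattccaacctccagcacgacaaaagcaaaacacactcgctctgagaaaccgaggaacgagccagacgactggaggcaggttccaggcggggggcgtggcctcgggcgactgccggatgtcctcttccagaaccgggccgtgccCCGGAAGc
MRPS27, chr5:72320241-72320490, minus strand: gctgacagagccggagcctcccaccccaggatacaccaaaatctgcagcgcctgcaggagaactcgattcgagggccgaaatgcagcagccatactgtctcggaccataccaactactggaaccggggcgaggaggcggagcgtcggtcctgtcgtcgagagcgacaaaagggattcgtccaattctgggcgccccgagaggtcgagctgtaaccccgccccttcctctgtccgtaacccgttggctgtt
The motif starts 21 bases before the gene start in MRPL54, 8 before it in MRPL33 and 222 before it in MRPS18C, whose E-box starts 179 bases and NRF1 core 136 bases before it. Of the windows shown, those of MRPS18C, MRPL54 and MRPL33 hold the ETS core, with changes of -1.27, -1.15 and 0.12. Those of MRPL39, MRPS16 and MRPS27 hold none of the 4 motifs, with changes of -1.50, -1.37 and 0.06. These genes were picked by their change and the ETS core, and the part of the motifs in the change was not tested.

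In the large subunit, 45 of 48 genes fell, none rose and 3 were not called, with a median of -0.76 (-0.76 in wt and -0.81 in wt/GFP), or 1.69-fold down, and quartiles of -1.02 and -0.54. MRPL39, a mitochondria-specific protein with domains related to threonyl-tRNA synthetase, had signals of 7036 (wt) and 6736 (wt/GFP) in monolayer and 2458 and 2391 in spheroids. Both spheroid signals lay far below both monolayer signals, and the fitted spheroid level was 35.3% of that in monolayer. Its log2 change was -1.50 (SE 0.114, adjusted p = 1.1e-11), almost the same in wt (-1.51) and wt/GFP (-1.49). MRPL35, the counterpart of a small bacterial large-subunit protein, had signals of 4447 (wt) and 4249 (wt/GFP) in monolayer and 1876 and 1619 in spheroids. It changed by -1.31 (SE 0.118, adjusted p = 2.83e-10), with no overlap between the cultures. MRPL49, which has no bacterial counterpart, gave 6126 (wt) and 6184 (wt/GFP) in monolayer and 2564 and 2417 in spheroids. The change was -1.30 (SE 0.115, adjusted p = 2.04e-10), and within each culture its 2 arrays were close to each other. MRPL37, another mitochondria-specific protein, gave 5308 (wt) and 4985 (wt/GFP) in monolayer and 2521 and 2071 in spheroids, a change of -1.17 (SE 0.117, adjusted p = 2.12e-09).

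Other large falls came from proteins at different places in the subunit. MRPL1, the protein of the stalk over which spent tRNA leaves, had signals of 7285 (wt) and 6729.8 (wt/GFP) in monolayer and 3242 and 3103 in spheroids and changed by -1.14 (SE 0.114, adjusted p = 2.18e-09). For MRPL16, near the tRNA binding sites, the signals were 5586 (wt) and 5451 (wt/GFP) in monolayer and 2676 and 2330.3 in spheroids and the change -1.14 (SE 0.116, adjusted p = 2.84e-09). The rRNA-binding protein MRPL20 gave 15968 (wt) and 14545 (wt/GFP) in monolayer and 7726 and 6092 in spheroids, with a change of -1.15 (SE 0.119, adjusted p = 3.9e-09). MRPL58 (ICT1), a peptidyl-tRNA hydrolase within the ribosome that can free stalled chains, gave 5918 (wt) and 5848 (wt/GFP) in monolayer and 2956 and 2432 in spheroids and changed by -1.13 (SE 0.117, adjusted p = 4.16e-09). In all 4 of these genes both spheroid arrays lay below both monolayer arrays. MRPL54, mitochondria-specific, gave 3087 (wt) and 3151 (wt/GFP) in monolayer and 1659 and 1169 in spheroids, and its change of -1.15 (SE 0.131, adjusted p = 2.04e-08) was -0.89 in wt and -1.42 in wt/GFP, one of the wider gaps between the lines.

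The rest of the large subunit followed with smaller falls. MRPL12, the stalk protein that recruits translation factors, changed by -0.97 (SE 0.115, adjusted p = 4.67e-08), with signals of 9300.3 (wt) and 8305 (wt/GFP) in monolayer and 4875 and 4137 in spheroids. MRPL23, at the exit of the nascent chain, gave 4778 (wt) and 4807 (wt/GFP) in monolayer and 2374 and 2046 in spheroids and a change of -1.12 (SE 0.117, adjusted p = 5.42e-09). MRPL3, a core protein next to the catalytic centre, gave 24391 (wt) and 21911 (wt/GFP) in monolayer and 17095 and 13310.3 in spheroids and a change of -0.62 (SE 0.126, adjusted p = 0.000163). MRPL28 had the widest standard error of the genes called lower, with signals of 1197 (wt) and 1350.03 (wt/GFP) in monolayer and 881 and 696 in spheroids and a change of -0.69 (SE 0.148, adjusted p = 0.000282), -0.44 in wt and -0.94 in wt/GFP. MRPL36, with 11483 (wt) and 10489 (wt/GFP) in monolayer and 10815 and 7130.5 in spheroids, was called lower at -0.32 (SE 0.125, adjusted p = 0.0344) although its wt spheroid signal lay inside the monolayer range. The weakest called fall was that of MRPL10, -0.28 (SE 0.115, adjusted p = 0.0431).

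**Figure D2:**
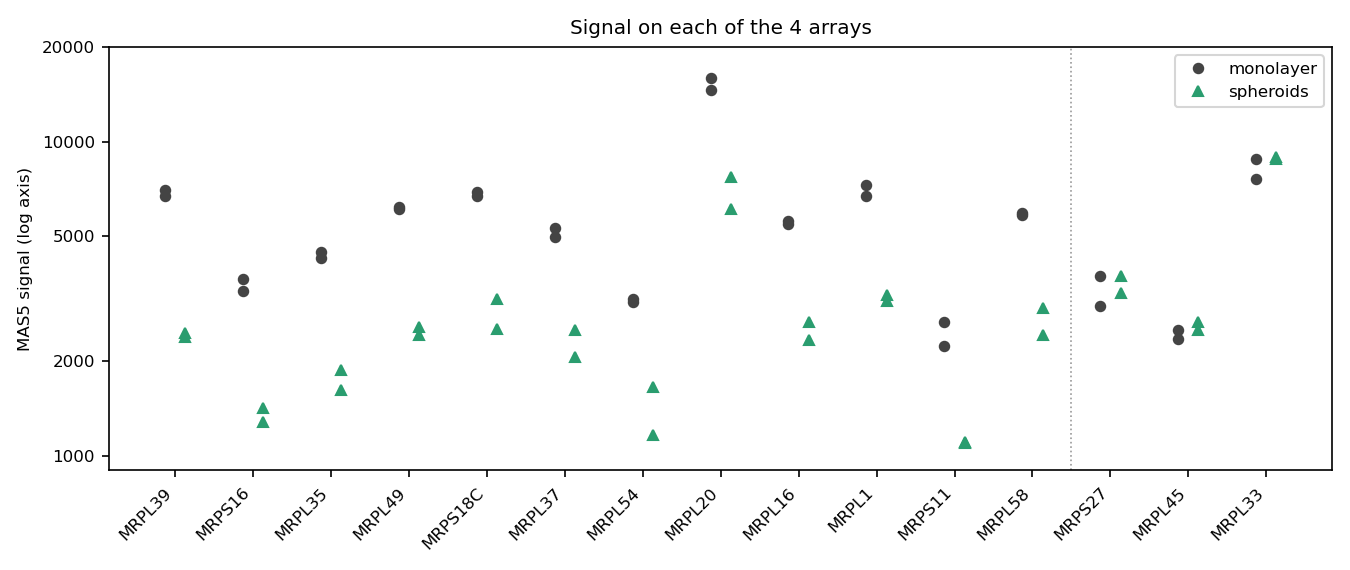
MAS5 signal (vertical axis, logarithmic) on each of the 4 arrays for the 12 genes with the largest called falls and, right of the dotted line, MRPS27, MRPL45 and MRPL33, with monolayer arrays as circles and spheroid arrays as triangles. For the 12 genes both triangles lie below both circles, and for the other 3 they lie at or near the circles.

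In the small subunit, 24 of 28 genes fell, none rose and 4 were not called, with a median of -0.59 (-0.59 in wt and -0.66 in wt/GFP), or 1.51-fold down, and quartiles of -0.81 and -0.30. MRPS16, the counterpart of a bacterial assembly-promoting protein and a gene mutated in an inherited respiratory chain deficiency, had signals of 3654 (wt) and 3357 (wt/GFP) in monolayer and 1426 and 1280.4 in spheroids. Its change was -1.37 (SE 0.12, adjusted p = 1.88e-10), the largest fall of this subunit, and the lines were alike at -1.35 and -1.38. MRPS18C, a paralogue of MRPS18A and MRPS18B, gave 6935 (wt) and 6731 (wt/GFP) in monolayer and 3166 and 2534 in spheroids. It changed by -1.27 (SE 0.117, adjusted p = 4.79e-10), while MRPS18B changed by -0.57 (SE 0.115, adjusted p = 0.000131) and MRPS18A by -0.41 (SE 0.124, adjusted p = 0.00703); the 2 arrays of MRPS18A differed between lines in monolayer (2661 in wt and 1762 in wt/GFP), and its groups overlapped. MRPS11, on the platform of the subunit, gave 2234 (wt) and 2669 (wt/GFP) in monolayer and 1098 and 1111 in spheroids and a change of -1.13 (SE 0.127, adjusted p = 1.74e-08). MRPS7, which nucleates the head, gave 6149.9 (wt) and 5555 (wt/GFP) in monolayer and 2819 and 2674 in spheroids and changed by -1.09 (SE 0.115, adjusted p = 5.66e-09). MRPS12, a protein of the decoding centre, gave 12854 (wt) and 11035 (wt/GFP) in monolayer and 5932 and 5487 in spheroids and changed by -1.06 (SE 0.116, adjusted p = 1.12e-08). Apart from MRPS18A, both spheroid arrays lay below both monolayer arrays in each gene named here. DAP3, a GTP-binding protein of the small subunit also known for a role in apoptosis, gave 7899 (wt) and 7561 (wt/GFP) in monolayer and 6307 and 6338 in spheroids, a smaller change of -0.29 (SE 0.115, adjusted p = 0.038).

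Large-subunit transcripts had the lower median. Taking the small-subunit median from the large-subunit one gave -0.16 in the fit; the value for wt alone was -0.17 and that for wt/GFP -0.15, so the sign was the same. With 2 pairs, the smallest p an exact permutation test can give is 0.5, and no p is given. The difference depended on the assignment of 3 genes: structures place MRPS30 and MRPS18A in the large subunit and KGD4 outside the ribosome, and with these moved the medians were -0.71 and -0.67, which left -0.04 between them (wt -0.067, wt/GFP -0.10). A fall of at least 2-fold was called in 14 of 48 large-subunit and 5 of 28 small-subunit genes.

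Both bacterial-type and mitochondria-specific proteins were among those lower. Genes with a bacterial counterpart fell in 42 of 44 cases, with a median of -0.75, and mitochondria-specific genes in 23 of 27, with a median of -0.61; the remaining 5 genes with a subunit were assigned to neither. Within the large subunit the medians were alike, -0.73 (29 of 30 lower) and -0.74 (15 of 17 lower). Within the small subunit they were -0.75 (13 of 14 lower) and -0.45 (8 of 10 lower). No test of the difference between these classes was made. The split was written by hand from background knowledge.

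The 7 genes with a subunit that were not called are MRPL33, MRPL45, MRPL48, MRPS5, MRPS27, MRPS31 and KGD4. MRPL33, a small counterpart of a bacterial protein near the tRNA exit site, had signals of 7593 (wt) and 8801 (wt/GFP) in monolayer and 8949.6 and 8813 in spheroids. The wt monolayer array is the lowest and the others lie close together, giving 0.12 (SE 0.118, adjusted p = 0.427). MRPL45, which faces the inner membrane at the exit tunnel, gave 2525 (wt) and 2359 (wt/GFP) in monolayer and 2663 and 2507 in spheroids, with overlapping groups and a change of 0.08 (SE 0.118, adjusted p = 0.6). MRPS27, a pentatricopeptide repeat protein, gave 3746 (wt) and 3007 (wt/GFP) in monolayer and 3729.98 and 3295 in spheroids. The line rather than the culture separates its arrays, and the change was 0.06 (SE 0.116, adjusted p = 0.69), -0.0063 in wt and 0.13 in wt/GFP. The other 4 were below 0 in both lines: MRPL48 at -0.26 (SE 0.117, adjusted p = 0.068), MRPS31 at -0.25 (SE 0.118, adjusted p = 0.0804), MRPS5 at -0.22 (SE 0.117, adjusted p = 0.116) and KGD4, now known as a subunit of the 2-oxoglutarate dehydrogenase complex, at -0.17 (SE 0.115, adjusted p = 0.231). MRPL33, MRPL45 and MRPS27 were above 0 with the deposited scaling and with quantile normalization, and below 0 with median centring and with scaling to hybridisation controls. Under the deposited scaling, all 76 genes, these included, lay below the median of all genes. Under quantile normalization MRPL33 (0.28), MRPL45 (0.13) and MRPS27 (0.17) lay above that median (0.019).

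The genes that joined by an alias and are known for other work behaved differently from one another. LACTB, a filament-forming mitochondrial protein related to bacterial beta-lactamases, was the only gene of the 78 tested that rose, with signals of 723 (wt) and 670.3 (wt/GFP) in monolayer and 967 and 1037 in spheroids and a change of 0.52 (SE 0.149, adjusted p = 0.00485). That call did not hold with quantile normalization (0.37, adjusted p = 0.0643) or median centring (0.12, adjusted p = 0.531), and the change was -0.076 with scaling to hybridisation controls. IMP3, a protein of the U3 complex that processes cytosolic ribosomal RNA, gave 3477 (wt) and 3093 (wt/GFP) in monolayer and 2065 and 2420.3 in spheroids and changed by -0.55 (SE 0.123, adjusted p = 0.000448). RSPH9, a radial spoke protein of motile cilia, had signals of 29.8 (wt) and 7.76 (wt/GFP) in monolayer and 55.5 and 9.04 in spheroids, below the limit of testing.

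The probe sets of one gene did not always move together. Tested alone, 89 of the 142 probe sets that passed the filter were lower, 8 higher and 45 not called, against 16.1% lower and 26.6% higher among 27029. The brightest probe set of each gene, which the tests above use, was lower in 66 of 78 genes (median -0.69), and the 64 others were lower in 23 cases and higher in 7 (median -0.27). These others were dimmer, with a median log2 level of 8.87 against 11.95. In 36 genes several probe sets passed, and in 18 of those they differed in sign; in 6 (MRPL50, MRPL19, MRPS14, MRPS25, MRPL57 and MRPS30) one was called lower and another higher.

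For MRPL50, a mitochondria-specific protein, the brightest probe set changed by -0.44 (SE 0.127, adjusted p = 0.00546), whereas a dim one had signals of 14.9 and 39.3 in monolayer and 112 and 139 in spheroids and changed by 1.83 (SE 0.465, adjusted p = 0.00212). MRPL19, a rRNA-binding protein of the large subunit, showed -0.61 (SE 0.122, adjusted p = 0.000166) on its brightest probe set and 1.26 (SE 0.278, adjusted p = 0.000514) on one with signals of 87.4 and 115 in monolayer and 241 and 282 in spheroids. For MRPS14, in the head of the small subunit, the values were -0.67 (SE 0.124, adjusted p = 6.6e-05) and, with signals of 147 and 143 in monolayer and 254 and 314 in spheroids, 0.90 (SE 0.253, adjusted p = 0.00472). In these 3 genes the probe set that was higher was many times dimmer than the one that was lower. The higher probe sets of MRPS25, MRPL57 and MRPS30 were brighter on average, with changes of 0.81, 0.50 and 0.73. Their signals ran from 214 to 420, 498 to 1113 and 518 to 924 over the 4 arrays. The MRPL57 probe set was higher in spheroids in wt (1.14) and lower in wt/GFP (-0.14). Those of MRPS25 and MRPS30 were higher in both lines. MRPL39, MRPS18C and MRPL20 also had a dim probe set above 0, at 0.71, 0.39 and 0.49, none of which was called. What the dim probe sets detect was not tested. In 48 tested genes the brightest probe set is of a type that can bind several transcripts; without all such probe sets 45 genes were tested and 30 were lower, against 15.2% of all genes. MRPL39 (0.71), MRPL35 (-0.30) and MRPL20 (-0.36) were then not called. Named pseudogenes are common in this family: 40 of the 79 genes have at least 1 in the RefSeq table, 99 in all, with 9 for MRPS21, and whether the probe sets also detect pseudogene transcripts was not tested.

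**Figure D3:**
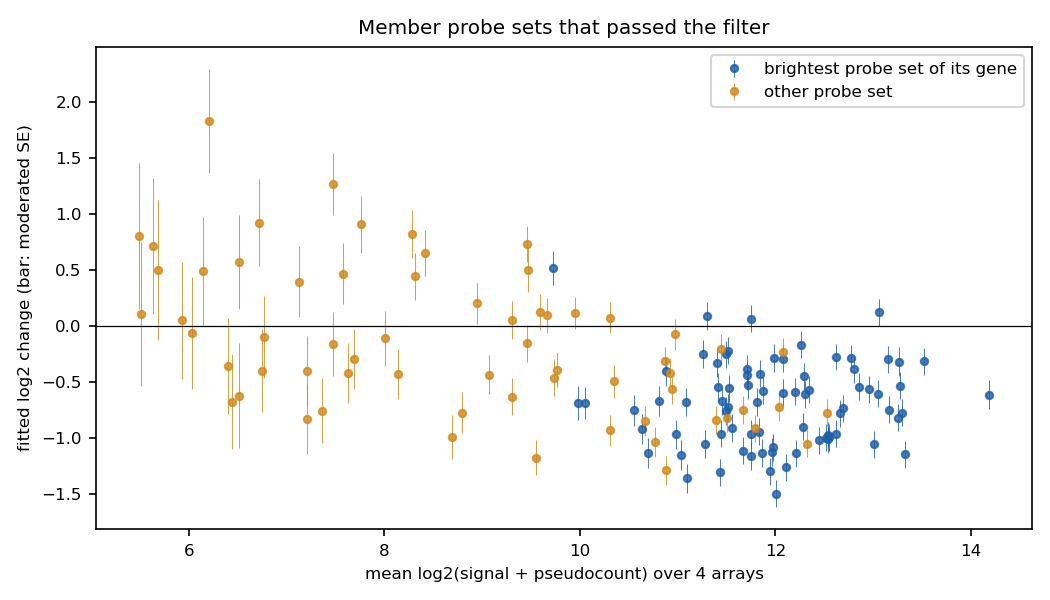
Fitted log2 change (vertical axis, bars are the moderated SE) against mean log2 level over the 4 arrays (horizontal axis) for the 142 probe sets that passed the filter, with the brightest of each gene in blue and the others in orange. Most blue points lie below 0 and to the right, and the points above 0 are mostly orange and dim.

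Genes that build and serve the mitochondrial ribosome were called in both directions, more often lower than higher. For each list below, the share among all genes tested was 18.6% lower and 30.7% higher. Of 26 tested assembly factors, 14 fell and 3 rose, with a median of -0.47. FASTKD2, which binds the large rRNA, gave 2662 (wt) and 2507 (wt/GFP) in monolayer and 1205 and 923 in spheroids and changed by -1.28 (SE 0.128, adjusted p = 2.12e-09); without shared probe sets it was not called, at -0.39. The large-rRNA methyltransferases MRM3 and MRM2 changed by -1.14 (SE 0.121, adjusted p = 6.98e-09) and -0.97 (SE 0.116, adjusted p = 6.31e-08), and the GTPase MTG1 by -0.87 (SE 0.258, adjusted p = 0.00618). The 3 that rose, named after their values were seen, were NOA1 at 0.45, METTL15 at 0.38 and TFB1M at 0.31; with median centring (0.06, -0.015 and -0.08) or hybridisation controls (-0.15, -0.22 and -0.28) none of the list was higher.

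Among 15 tested translation factors, 6 fell and 1 rose, with a median of -0.17. TACO1, an activator of translation of a cytochrome oxidase subunit, gave 2407 (wt) and 2823 (wt/GFP) in monolayer and 1145 and 1222 in spheroids and changed by -1.13 (SE 0.125, adjusted p = 1.26e-08). The elongation factor TSFM changed by -1.06 (SE 0.121, adjusted p = 2.47e-08), the RNA stability factor SLIRP by -0.88 (SE 0.127, adjusted p = 1.34e-06) and the initiation factor MTIF2 by -0.80 (SE 0.121, adjusted p = 2.49e-06). MTIF3, an initiation factor named after its values were seen, was the one that rose, by 0.68 (SE 0.13, adjusted p = 7.59e-05); it was 0.29 with median centring and 0.09 with hybridisation controls, where none of the list was higher. LRPPRC, the binding partner of SLIRP, was not called, at 0.12 (SE 0.121, adjusted p = 0.437). Its change was -0.27 with median centring and -0.47 with hybridisation controls.

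Of 11 genes for transcription and upkeep of mitochondrial DNA, 6 fell and 2 rose, with a median of -0.30. The transcription elongation factor TEFM changed by -1.03 (SE 0.138, adjusted p = 3.55e-07) and the packaging factor and activator TFAM, with signals of 5679.5 (wt) and 5392 (wt/GFP) in monolayer and 2672 and 2819.6 in spheroids, by -1.01 (SE 0.115, adjusted p = 2.52e-08). Without shared probe sets TFAM was not called, at -0.36. SSBP1, the single-strand binding protein, changed by -0.79 (SE 0.122, adjusted p = 3.49e-06), but its probe sets disagreed: their mean gave 0.35 and the one not shared between transcripts 0.75. The topoisomerase TOP1MT rose, from 1109.5 (wt) and 1226 (wt/GFP) in monolayer and 2236 and 2208 in spheroids, a change of 0.92 (SE 0.127, adjusted p = 5.69e-07) that did not pass with hybridisation controls (0.33, adjusted p = 0.505), and so did the polymerase POLG (0.39), named after its values were seen. POLG was -0.0035 with median centring and -0.20 with hybridisation controls; 1 gene of the list was higher with quantile normalization, 1 with median centring and none with hybridisation controls.

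Of 8 tested transcription regulators of such genes, 3 fell and none rose, with a median of 0.055. With quantile normalization 1 of the list was higher. PPRC1, a coactivator, changed by -0.69 (SE 0.13, adjusted p = 6.41e-05), and GABPB1, a subunit of the GABP factor, by -0.63 (SE 0.153, adjusted p = 0.0011). NRF1, whose motif is named above, changed by -0.50 (SE 0.16, adjusted p = 0.0108). None of these 3 passed with eBayes without trend. GABPA, the DNA-binding partner of GABPB1, was not called, at 0.16 (SE 0.126, adjusted p = 0.298). MYC was not called, at 0.22 (SE 0.123, adjusted p = 0.144). Nor was the nuclear receptor ESRRA, at 0.22 (SE 0.15, adjusted p = 0.23), which was above 0 with the deposited scaling and below it with median centring. GABPA and MYC were also below 0 with median centring (-0.23 and -0.17) and with hybridisation controls (-0.43 and -0.37). With quantile normalization they were 0.15 and 0.35. Proteins of the mitochondrial ribosome that carry other symbols fell too: GADD45GIP1 by -1.15 (SE 0.119, adjusted p = 3.64e-09), CHCHD1 by -0.58 (SE 0.115, adjusted p = 0.000112) and PTCD3 by -0.34 (SE 0.122, adjusted p = 0.0226), although the mean of the probe sets of PTCD3 was higher in spheroids (0.58, adjusted p = 0.00923). The fall of PTCD3 did not pass with quantile normalization (-0.31, adjusted p = 0.0592), with eBayes without trend (adjusted p = 0.187), or without the wt monolayer (-0.41, adjusted p = 0.104), wt/GFP monolayer (-0.27, adjusted p = 0.303) or wt/GFP spheroid array (-0.29, adjusted p = 0.0524).

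**Figure D4:**
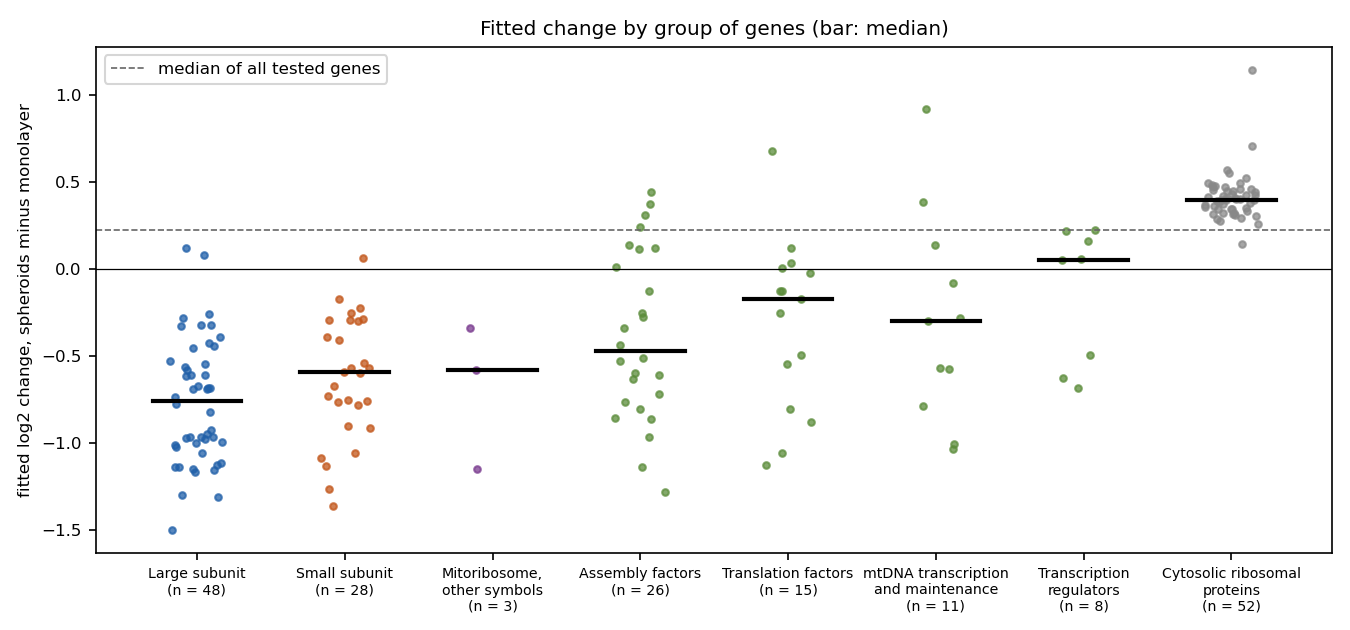
Fitted log2 change (vertical axis, spheroids minus monolayer) of each tested gene, by group, with the group's median as a bar and the median of all genes at 0.23 (dashed). The large and small subunits lie lowest with the proteins under other symbols, and the cytosolic ribosomal proteins, all but 1, lie above the dashed line.

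The proteins of the cytosolic ribosome did not share this fall. Of 52 tested cytosolic genes with a single-symbol probe set, none was lower and 38 were higher, against 18.6% lower and 30.7% higher among all genes. At an unadjusted p under 0.05 in limma, 47 were higher and none lower. Their median was 0.40 (0.21 in wt and 0.60 in wt/GFP). The direction depends on the scaling, since the median was 0.051 with quantile normalization, 0.0085 with median centring and -0.19 with scaling to hybridisation controls. In that order, 5, 0 and 0 of the 52 were called higher, against 23.6%, 16.4% and 6.92% of all genes. With hybridisation controls 1 was lower, against 26.2% of all genes. The mitochondrial median minus the cytosolic one was -1.09 with the deposited scaling; the wt pair of arrays gave -0.91 and the wt/GFP pair -1.32. With 2 pairs no exact test can give a p under 0.5.

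The size of the mitochondrial fall, but not its direction, depended on how the arrays were scaled. The median of all genes changed by 0.23 with the deposited scaling, 0.019 with quantile normalization, -0.17 with median centring and -0.37 with scaling to 18 hybridisation controls, which were brighter in spheroids by 0.39 in wt and 0.78 in wt/GFP. Under the same 4 scalings, the large-subunit median was -0.76, -0.74, -1.15 and -1.35, and the small-subunit median -0.59, -0.46, -0.99 and -1.19. The percentage of all genes lower was 18.6, 21, 32.4 and 26.2, and the share higher was 30.7%, 23.6%, 16.4% and 6.92%. Of the 79 genes, 61 were called lower under every one of the 4, of them 41 of the large and 19 of the small subunit. The 9 lost with quantile normalization (DAP3, MRPL10, MRPL36, MRPL44, MRPL57, MRPS21, MRPS26, MRPS28 and MRPS33) had fitted changes of -0.28 to -0.39 with the deposited scaling.

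**Figure D5:**
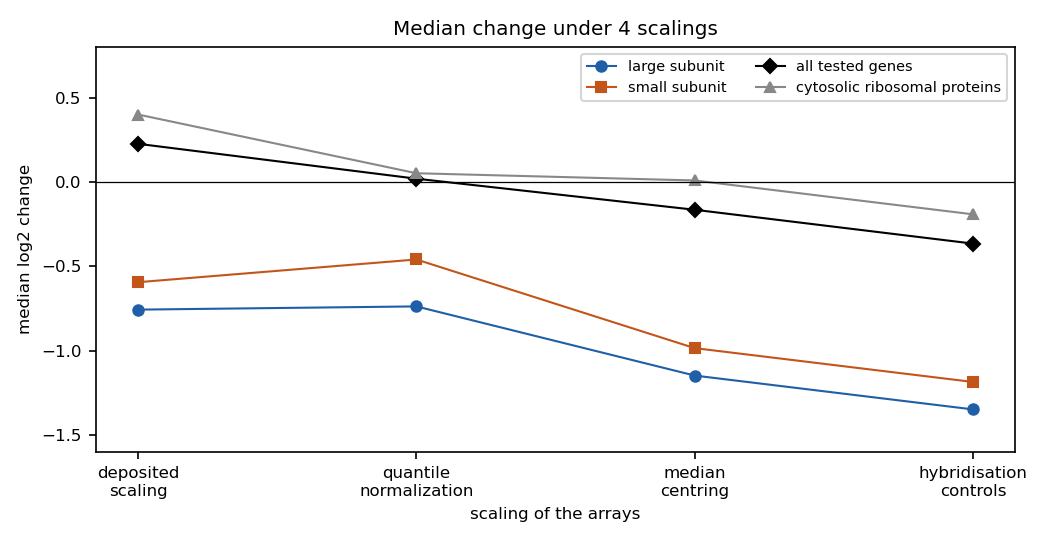
Median log2 change (vertical axis) of the large subunit, the small subunit, the cytosolic ribosomal proteins and all tested genes under 4 ways of scaling the arrays (horizontal axis; the lines only join points of one group). Both subunits lie below all genes and below the cytosolic proteins under each scaling, with large-subunit medians from -0.74 to -1.35.

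No mitochondrial ribosomal gene was called different between the 2 lines. Of the 78 tested in limma, 0 passed for wt/GFP minus wt, against 0.0349% of all genes, and 8 had an unadjusted p under 0.05 (6.58% of all genes did). The lowest adjusted p was 0.254, for MRPS18A. The differences leaned one way, with 67 of 78 genes lower in wt/GFP and a median of -0.12, where that of all genes was 0.013. Among the bright epithelial markers, EPCAM, KRT18 and KRT19 also had lower signals in wt/GFP in both cultures, and KRT8 in monolayer only. Whether bright genes at large share this lean was not tested. The changes in the 2 lines ran in parallel over the 79 genes (r = 0.899, a description, since all values of a line share its 2 arrays).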

How the data were processed

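Total RNA from 4 HCT116 cultures was taken up on Qiagen RNeasy columns, and biotin-labelled cRNA was made from 2 µg of it, per the labels' protocols. The deposited values are MAS5 intensities on a linear scale, per the submitters' processing notes. Their software version was not given in the sources used here. Gene symbols came from the platform annotation, with aliases from RefSeq; 1801 probe sets with several symbols were left out.

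The scale was log2(signal + 14.0), the pseudocount being the 25th percentile of all values. Probe sets with a mean log2 above the 40th percentile (5.48, a signal of 30.6) were kept, each gene took its brightest, and limma 3.58.1 in R 4.3.3 was fitted to 14337 genes with culture and cell line as terms and eBayes with trend. P-values were adjusted over all genes by the Benjamini-Hochberg method, with a threshold of 0.05. The pairing comes from the line named in the labels. Differences between the lines in monolayer and in spheroids correlated at 0.00682 over all genes. A log2 change understates the fold of dim genes.

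The genes and lists were chosen with earlier results of these data known. Genes with full values were up to 12 called members with the largest fall or rise, those whose lines differ in sign, up to 6 whose probe sets differ in sign, and up to 4 of each other list with the largest change; others named beside them were chosen after their values were seen. The list of proteins under other symbols was added after the data were seen. Promoters came from RefSeq on GRCh38.p14; the NRF1 and YY1 motifs were shortened after longer forms had been searched. The fit was tested on simulated data with independent noise of the fit's own variances. That noise held no error shared by the genes of an array, so such error was not covered. Alternatives covered scaling, pseudocount, filter, probe set, block, moderation and left-out arrays.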

Additional observations from a re-analysis of the deposited data

Results flagged for a closer look

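MRPS27 is the one gene with a subunit whose change had opposite signs in the lines, -0.0063 in HCT116 wt and 0.13 in HCT116 wt/GFP on the log2 scale (spheroids minus monolayer). Each value rests on 1 pair of arrays, the wt value is close to 0, and the difference between the lines was not tested.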

How the results depend on the processing

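The count of genes lower in spheroids was 70 and lay between 53 and 76 under the alternatives that keep all genes, except the moderation without trend (36, with 0 higher) and the fit without shared probe sets (30 of 45 tested, with 2 higher). Of all genes, 18.6% were lower in the main fit. The share was 15.4% where 53 were lower (mean of probe sets) and 32.4% where 76 were (median centring). It was 8.2% with the moderation without trend and 15.2% without shared probe sets. Without cell line as a replicate block, 63 were lower and 1 higher, against 17.5% of all genes lower. Leaving out 1 array at a time was fitted with no line term and left 1 array in a culture. The subunit medians of those fits are given below. DAP3, MRPL10 and MRPS21 lost their call whichever array was left out; without the wt monolayer array 15 calls were lost (IMP3, MRPL17 and MRPL24 in that case alone), without the wt spheroid array 5, without the wt/GFP monolayer array 10 (MRPL30 in that case alone) and without the wt/GFP spheroid array 12 (MRPL3 and MRPS15 in that case alone).

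No gene was higher with median centring, with hybridisation controls, by current symbol alone, or without IMP3, LACTB and RSPH9 (an alternative chosen after seeing the data); 8 probe sets were higher when tested alone. The large-subunit median of -0.76 became -1.15 (median centring), -1.35 (hybridisation controls), -0.69 (mean of probe sets), -0.68 (no shared probe sets) and -0.71 (subunits by structure), and -0.71 to -0.85 with arrays left out. The small-subunit median of -0.59 became, in the same order, -0.99, -1.19, -0.41, -0.53 and -0.67, then -0.50 to -0.68, and -0.46 with quantile normalization. Their difference of -0.16 became -0.28 (quantile), -0.27 (mean of probe sets), -0.14 (no shared probe sets), -0.12 (current symbol alone), -0.042 (by structure) and -0.17 to -0.21 with arrays left out. Over the companion lists 29 genes were lower and 6 higher: 1, 0 and 1 were higher with median centring, hybridisation controls and no trend, 16 and 12 lower without shared probe sets and without trend, and 22 to 30 lower and 2 to 6 higher with arrays left out. With a filter at the 60th percentile, 1 gene differed between lines (lowest adjusted p = 0.0299).

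These changes turned sign, as did those of MYC, GABPA, LRPPRC, NOA1, METTL15 and TFB1M, given above. With median centring and with hybridisation controls, MRPS27 was -0.33 and -0.53, ESRRA -0.17 and -0.37, MRPL33 -0.27 and -0.47, and MRPL45 -0.31 and -0.51; POLG was -0.0035 and -0.20, and LACTB was -0.076 with hybridisation controls. With the mean of probe sets, MRPL50 was 0.39, MRPL19 0.16, MRPS14 0.12, SSBP1 0.35, ESRRA -0.21 and PTCD3 0.58. Without shared probe sets, MRPL39 was 0.71, MRPS14 0.90 and SSBP1 0.75. MRPS27 was -0.027 without the wt spheroid array, -0.095 without the wt/GFP monolayer array and 0.22 without the wt monolayer array. MRPL33 was called higher with quantile normalization alone (0.28, adjusted p = 0.0282). The causes were not tested. Among the tested probe sets of the mitochondrial ribosomal genes, the dimmest had the widest errors, which the moderation with trend largely sets from brightness. The part of brightness in the turned signs was not tested. MRPS27, MRPL33 and MRPL45, which turned sign too, had signals of 2359 and above on all arrays.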

Other observations

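Probe sets annotated to a mitochondrial ribosomal gene together with a second gene belong to no comparison above. One shared by MRPL51 and SPTLC1 had signals of 2291 (wt) and 2402 (wt/GFP) in monolayer and 1083 and 946 in spheroids, a log2 change of -1.07 in wt and -1.33 in wt/GFP. Another, shared by MRPS24 and the read-through gene URGCP-MRPS24, gave 13479 (wt) and 11916 (wt/GFP) in monolayer and 8671 and 7409 in spheroids, a log2 change of -0.64 in wt and -0.68 in wt/GFP. A probe set shared by MRPL53 and CCDC142 gave 3824 (wt) and 4309 (wt/GFP) in monolayer and 2465 and 2526 in spheroids, a log2 change of -0.63 in wt and -0.77 in wt/GFP. All 3 were lower in spheroids in both lines, and which of the paired genes each reflects was not tested.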
